A study of Homo sapiens with 3 samples.

Results

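*GPX8* and 9 other genes of oxidative protein folding in the endoplasmic reticulum (ER), *GPX7*, *ERO1A*, *ERO1B*, *P4HB*, *PDIA3*, *PDIA4*, *PDIA6*, *PRDX4* and *TXNDC5*, were followed across 3 Agilent arrays of 1 colour. The 10 genes were chosen by their known role beside *GPX8*, and *GPX8* itself was selected on its lower signal after *miR-139-3p* transfection on these same arrays. The levels are therefore a description, and no test was made. Of the 10 genes, 9 had a matched probe, 13 probes in all, and are among the 22439 gene symbols matched on the array. A signal well above background on all 3 arrays was found for 8. *ERO1A* was not analysed here, and *GPX7* was not well above background on any array.

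The RNA came from A549 cells, an established lung adenocarcinoma line of human origin, under 3 treatments: transfection reagent alone (mock), *miR-139-5p* at 10 nM, or *miR-139-3p* at the same dose. Since every treatment was read on 1 array, nothing here has a replicate check, and precision is limited by the number of arrays. Slide 1 held the arrays of mock and *miR-139-5p*, while that of *miR-139-3p* sat on slide 2, so its slide and its transfection cannot be told apart. Each array had 60901 spots other than controls, and the share well above background was 49.9% in mock, 48.1% after *miR-139-5p* and 53.1% after *miR-139-3p*. The last array also had the lowest median local background, 16 against 24 and 23.

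Proteins that enter the ER gain disulfide bonds from enzymes of the protein disulfide isomerase family, which pass the electrons they take up to the oxidases ERO1A and ERO1B. The oxidases hand these electrons to oxygen and make hydrogen peroxide, and the peroxidases of the ER, PRDX4, GPX7 and GPX8, remove the peroxide and can use it to oxidise the isomerases again. The pathway is busiest in cells that secrete much protein, and epithelial cells of the lung secrete mucus and surfactant proteins.

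The 2 transfected miRNAs are the arms of 1 hairpin, which is encoded by *MIR139* on chromosome 11, minus strand, of GRCh38.p14. Their mature RefSeq sequences are shown because they are what separates the transfected conditions, with the seed, bases 2 to 8 from the 5′ end, in capitals.
*miR-139-5p*, chr11:72615102-72615124: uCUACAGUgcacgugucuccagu
*miR-139-3p*, chr11:72615066-72615088: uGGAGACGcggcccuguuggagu
Both have 23 bases and their seeds differ. Whether the mRNAs of the 10 genes hold matches to these seeds was not analysed here.

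Among the peroxidases, *GPX8*, a glutathione peroxidase anchored in the ER membrane, was read by 2 probes. Signals are given as scaled signal, the processed signal of a spot divided by the 75th percentile of its array, with the error that Feature Extraction estimates for the spot. The first probe of *GPX8* had a scaled signal of 8.01 ± 0.80 in mock, 8.27 ± 0.83 after *miR-139-5p* and 1.41 ± 0.14 after *miR-139-3p*. The second probe stood at 7.18 ± 0.72 in mock, 11.0 ± 1.1 after *miR-139-5p* and 2.73 ± 0.27 after *miR-139-3p*. On both probes the *miR-139-3p* array was the lowest by far more than the spot errors, while the mock and *miR-139-5p* arrays differed beyond them on the second probe alone. The log2 difference in scaled signal between *miR-139-3p* and mock, averaged over the probes, was -1.95 ± 0.14 (Feature Extraction error), which is 25.9% of the mock signal. Its probes stood at -2.51 and -1.39, an SD of 0.79 between them, where the median SD between probes of 1 gene was 0.28 over 3684 genes. The size of the difference therefore depended on the probe, and its direction did not. Of 13551 protein-coding genes with a value, 271 had a lower one. *GPX8* was chosen for its low signal with *miR-139-3p*, so nothing is read from this rank. Between *miR-139-5p* and mock the log2 difference of *GPX8* was 0.33 ± 0.14, with the probes at 0.05 and 0.62. *GPX8* was 0.62 with the brightest probe alone, past the threshold of 0.5 used here. Directly between the transfected cells, *miR-139-3p* against *miR-139-5p*, *GPX8* was at -2.28 ± 0.14.

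*PRDX4*, the peroxiredoxin of the ER, had 1 probe with a bright signal, 112 ± 11.2 in mock, 125 ± 12.5 after *miR-139-5p* and 67.9 ± 6.79 after *miR-139-3p*. The *miR-139-3p* array was again the lowest, with a log2 difference of -0.72 ± 0.20 against mock, and the other arrays lay within their errors of each other. The probe of *GPX7*, the soluble relative of GPX8 in the ER lumen, gave scaled signals of 0.020, 0.015 and 0.013 in the order mock, *miR-139-5p*, then *miR-139-3p*, which were not well above background, so no difference is given.

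The oxidase *ERO1B* was the member that stood higher with *miR-139-3p* than in mock. Its single probe was dim, with a scaled signal of 0.11 ± 0.016 in mock, 0.22 ± 0.026 after *miR-139-5p* and 0.18 ± 0.021 after *miR-139-3p*, where the lowest signal counted as well above background was 0.052, 0.058 and 0.053. Mock was the lowest of the 3 arrays, with log2 differences of 0.68 ± 0.27 after *miR-139-3p* and 1.02 ± 0.27 after *miR-139-5p*. The *miR-139-3p* value was under the threshold in 6 of the other settings tried, at 0.26 with quantile normalization and 0.23 with normexp background correction. With normexp the *miR-139-5p* value was 0.29.

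**Figure D1:**
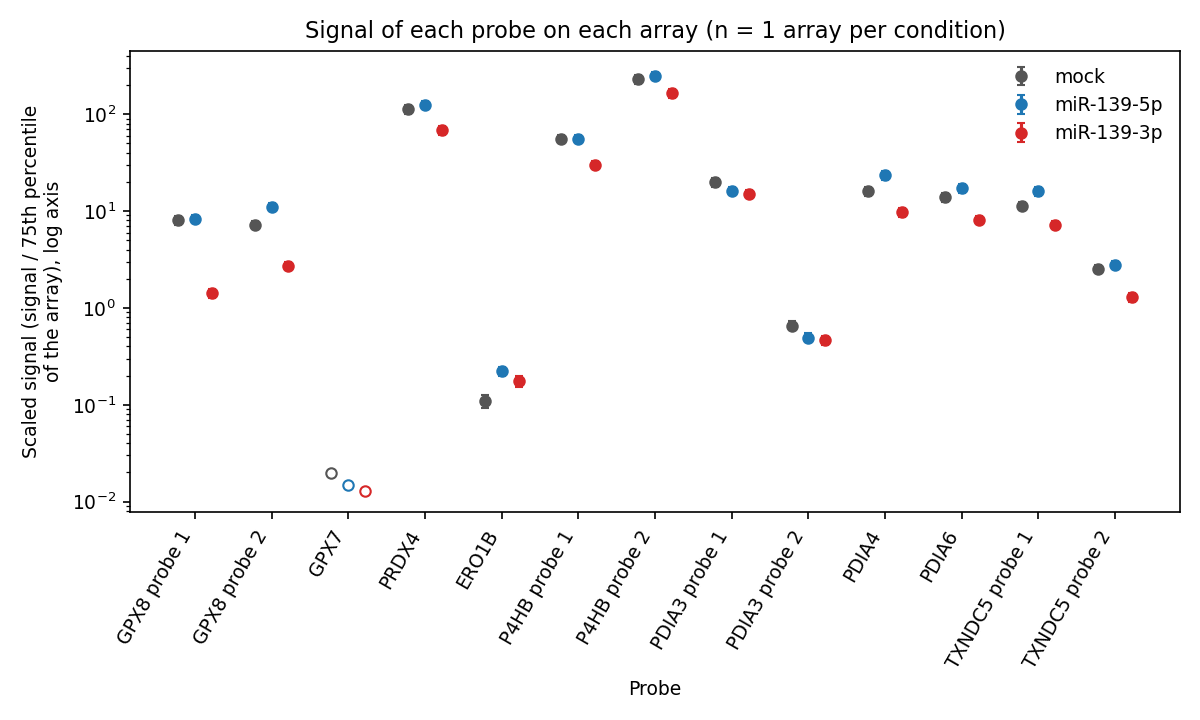
Scaled signal (log axis) of the 13 probes on the 3 arrays, with bars for the error estimated by Feature Extraction, often smaller than the point, and open points without bars for *GPX7*, not well above background. On the first *GPX8* probe the *miR-139-3p* point lies at 1.41 and the mock point at 8.01.

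The disulfide isomerases form and rearrange the bonds themselves. *P4HB*, protein disulfide isomerase proper, which is also a subunit of collagen prolyl 4-hydroxylase, had a scaled signal of 55.7 ± 5.57 in mock, 55.4 ± 5.54 after *miR-139-5p* and 30.1 ± 3.01 after *miR-139-3p* on its first probe. On its second probe the values were 228 ± 22.8, 249 ± 24.9 and 164 ± 16.4 in the same order. Mock and *miR-139-5p* lay within the errors of each other on both probes and *miR-139-3p* below them, with a log2 difference of -0.68 ± 0.14 against mock. The second probe alone, at -0.48, did not pass the threshold.

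*TXNDC5*, an isomerase with several thioredoxin domains, was also lower with *miR-139-3p* on both probes. The brighter one read 11.3 ± 1.13 in mock, 16.1 ± 1.61 after *miR-139-5p* and 7.18 ± 0.72 after *miR-139-3p*, and the other 2.54 ± 0.25, 2.79 ± 0.28 and 1.29 ± 0.13. Its log2 difference was -0.82 ± 0.14 against mock and -1.14 ± 0.14 against *miR-139-5p*.

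*PDIA6* and *PDIA4*, isomerases found in complexes with ER chaperones, had 1 probe each. *PDIA6* had a scaled signal of 13.8 ± 1.38 in mock, 17.2 ± 1.72 after *miR-139-5p* and 8.12 ± 0.81 after *miR-139-3p*. *PDIA4* had 15.9 ± 1.59 in mock, 23.4 ± 2.34 after *miR-139-5p* and 9.71 ± 0.97 after *miR-139-3p*. In both genes the order of the arrays was *miR-139-3p*, mock, *miR-139-5p*, and mock stood apart from either transfected array by more than the spot errors. The log2 difference between *miR-139-3p* and mock was -0.77 ± 0.20 for *PDIA6* and -0.71 ± 0.20 for *PDIA4*, while *miR-139-5p* against mock gave 0.32 ± 0.20 and 0.55 ± 0.20. *PDIA4* was within the threshold with *miR-139-3p* at -0.48 after quantile normalization, and with *miR-139-5p* at 0.48 without scaling. With normexp background correction *PDIA6* was at 0.11 with *miR-139-5p*, below the error of 0.20 in the main processing.

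*PDIA3*, which acts on glycoproteins bound to calnexin and calreticulin, was the only measured member within the threshold after *miR-139-3p*. Its bright probe read 19.7 ± 1.97 in mock, 16.1 ± 1.61 after *miR-139-5p* and 15.2 ± 1.52 after *miR-139-3p*, and its dim probe 0.66 ± 0.067, 0.49 ± 0.051 and 0.47 ± 0.048. Both transfected arrays were below mock, with log2 differences of -0.44 ± 0.15 after *miR-139-3p* and -0.35 ± 0.15 after *miR-139-5p*, and they differed from each other by less than the error, at -0.09 ± 0.15. Without scaling and with E1A spike-in scaling the *miR-139-3p* value passed the threshold, at -0.64 and -0.66.

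**Figure D2:**
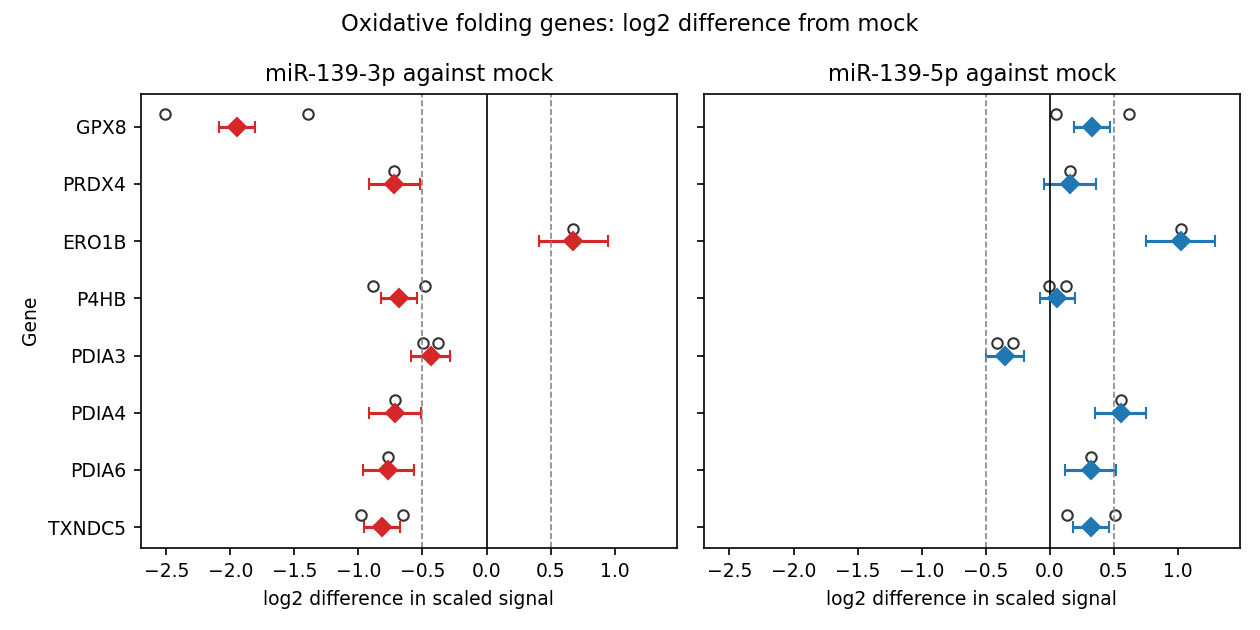
Log2 difference in scaled signal of the 8 measured genes, *miR-139-3p* against mock on the left and *miR-139-5p* against mock on the right, with diamonds for gene values, bars for the Feature Extraction error, open circles for probes and dashed lines at the threshold of 0.5. *GPX8* lies at -1.95 on the left and 0.33 on the right.

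At the threshold of 0.5 on the log2 scale, 6 of the 8 measured genes were lower with *miR-139-3p* than in mock (*GPX8*, *TXNDC5*, *PDIA6*, *PRDX4*, *PDIA4* and *P4HB*) and 1, *ERO1B*, was higher. Of all 13551 protein-coding genes with a value, 30.5% were lower and 23.0% higher, and *GPX8* was chosen on this contrast, so nothing is read from these counts. The median log2 difference was -0.72 over the 8 genes, -0.71 without *GPX8* and -0.13 over protein-coding genes. Bright genes tended to lie lower on the *miR-139-3p* array. Among the brightest 25% of protein-coding genes measured on all arrays, a split chosen after the data were seen, 36.7% were lower and 9.45% higher, with a median of -0.31. Of the 10 genes, *P4HB*, *PDIA4*, *PDIA6* and *PRDX4* belonged to these bright genes, and all 4 were lower. With the lowess trend of the difference on signal removed, also chosen after the data were seen, 4 genes were lower in place of 6, and *PDIA6* at -0.44 and *PDIA4* at -0.38 were within the threshold.

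After *miR-139-5p*, 2 of the 8 genes, *ERO1B* and *PDIA4*, were higher than in mock and 0 were lower. The number higher was 4 with the brightest probe of each gene, and 1 without scaling and with normexp. Of 13195 protein-coding genes, 10.6% were higher and 12.2% lower, and among the bright genes 6.14% and 6.43%. The median over the 8 genes was 0.32, against -0.01 over protein-coding genes. *PDIA3* was below 0, and *P4HB* was at 0.06, but at -0.01 without scaling. Both comparisons share the mock array. Between the transfected cells, *miR-139-3p* against *miR-139-5p*, 6 of the 8 genes were lower and 0 higher, where 30.6% of 13449 protein-coding genes were lower and 23.0% higher. Among the bright genes these shares were 37.6% and 10.3%.

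The scaling between arrays moved the balance of all genes. Of the protein-coding genes past the threshold with *miR-139-3p*, 43.0% were higher, but 28.8% without scaling, 28.1% with E1A spike-in scaling and 55.5% with the 75th percentile taken over probes well above background on all arrays. The median of all protein-coding genes moved from -0.13 to -0.34, -0.35 and 0.04 in these settings. With *miR-139-5p* the share was 46.6%, 33.9% without scaling and 67.3% when scaled to the spike-in, which put the median at 0.12. Between the transfected cells it was 42.9%, 22.9% with spike-in scaling and 57.3% with the percentile over such probes, and the median moved from -0.11 to -0.47 and 0.08, and to -0.25 without scaling. On the 7 E1A probes, which read RNA added to each sample, the median log2 difference in scaled signal was 0.24 between *miR-139-3p* and mock and -0.13 between *miR-139-5p* and mock.

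**Figure D3:**
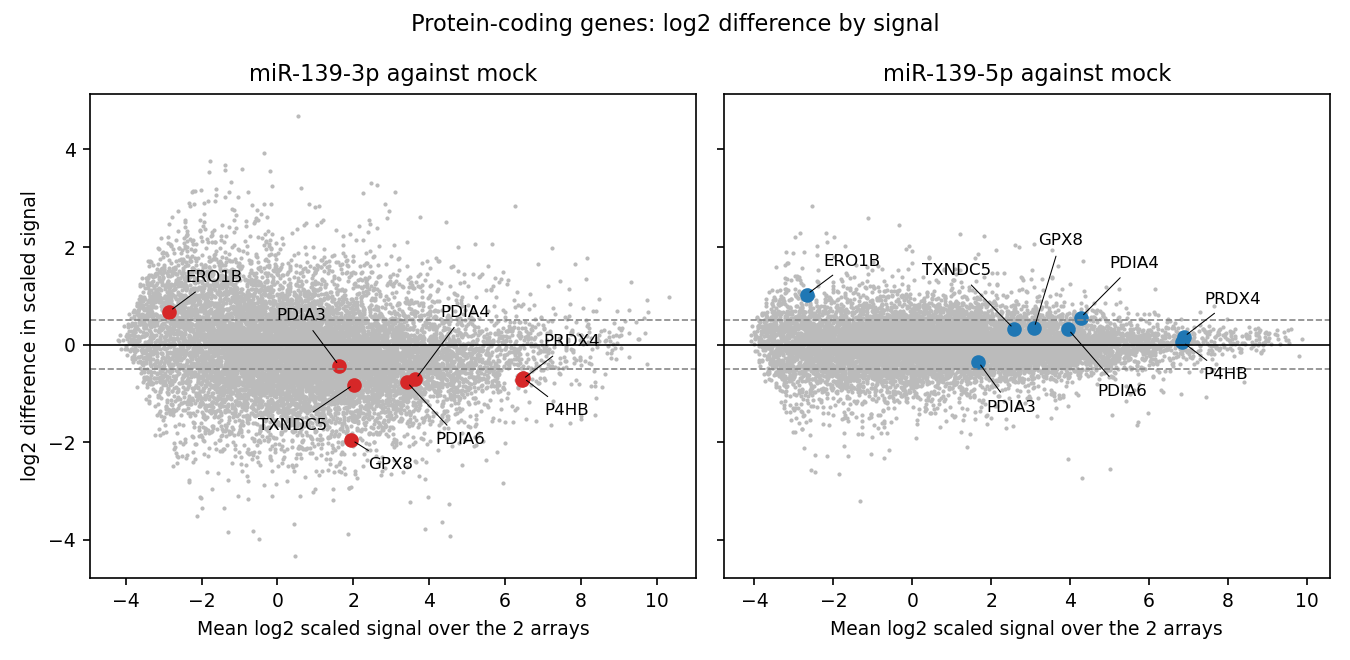
Log2 difference in scaled signal against the mean log2 scaled signal of the 2 arrays compared, for protein-coding genes measured on both (grey) and the 8 genes (coloured and named), with dashed lines at the threshold of 0.5. The spread is wider with *miR-139-3p*, an SD of 0.89 over all protein-coding genes with a value, than with *miR-139-5p*, at 0.47.

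The other thiol oxidoreductases of the ER, 23 genes, had a value for 18. After *miR-139-3p*, 11 were lower than in mock (61.1%, where 30.5% of all protein-coding genes and 36.7% of the bright ones were) and 2 higher (11.1%, beside 23.0% and 9.45%), with a median of -0.72 (-0.44 with the lowess trend removed). No test was made of these shares or of those of the lists that follow. The lowest value was that of *VKORC1*, which recycles vitamin K, at -2.64, with a scaled signal of 19.8 in mock, 20.3 after *miR-139-5p* and 3.17 after *miR-139-3p*. Its relative *VKORC1L1* was at -1.42, the sulfhydryl oxidase *QSOX2* at -1.65, and *AGR2*, an isomerase of mucus-producing cells, at -1.56, from 87.1 in mock to 29.6. *TXNDC16* was higher at 0.69 and *PDIA2*, an isomerase of the pancreas, at 3.16, both from dim probes that read 0.079 and 0.083 in mock. After *miR-139-5p*, 0 of the 18 genes were lower and 2 higher (11.1%), where 12.2% and 10.6% of protein-coding genes were, with a median of 0.11. The 4 genes lowest with *miR-139-3p* had values between -0.01 for *QSOX2* and 0.45 for *AGR2* there.

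The 27 chaperones and lectins of the ER all had a value, and after *miR-139-3p* 11 were lower (40.7%) and 1 higher (3.7%), with a median of -0.44. Of all protein-coding genes 30.5% were lower and 23.0% higher, and of the bright ones 36.7% and 9.45%. At the same threshold the number lower ran from 6 with quantile normalization to 18 without scaling. With the lowess trend removed the median was -0.12. The proline isomerase *FKBP11* was the lowest at -2.01, from a scaled signal of 18.9 in mock to 4.69, followed by the glucosidase subunit *PRKCSH* at -1.08, calnexin (*CANX*) at -1.05 and *FKBP7* at -0.86. Calreticulin (*CALR*), with a scaled signal of 171 in mock, 198 after *miR-139-5p* and 126 after *miR-139-3p*, stood at -0.44. *DNAJB9*, a cochaperone of HSPA5, was higher with both miRNAs, at 0.78 and 1.08. After *miR-139-5p*, 1 of the 27 genes was lower (3.7%) and 4 higher (14.8%), beside 12.2% and 10.6% of protein-coding genes, with a median of 0.22. The 4 were *DNAJB9*, *FKBP7* at 1.02, *DNAJC3* at 0.67 and the chaperone *HSPA5* at 0.64, the last pair named after their values were seen.

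The collagen hydroxylases and MTTP, which work with P4HB or beside it, had a value for 6 of 7 genes. After *miR-139-3p* 2 were lower, the lysyl hydroxylase *PLOD1* at -1.58 and *P4HA3* at -0.73, and 1 was higher, *P4HA2* at 1.17. *P4HA2* encodes a catalytic subunit that pairs with P4HB, and its scaled signal was 7.78 in mock, 10.9 after *miR-139-5p* and 17.5 after *miR-139-3p*, while that of its partner *P4HB* was lowest with *miR-139-3p*. *PLOD3* was at -0.26, and the median of the list was -0.19, but 0.14 with the lowess trend removed. The shares, 33.3% lower and 16.7% higher, stand beside the 30.5% and 23.0% of all protein-coding genes. With *miR-139-5p* the median was 0.34, and 2 genes were higher (33.3%, beside 10.6%) and 0 lower (beside 12.2%).

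Glutathione peroxidases and peroxiredoxins outside the 10 genes had a value for 9 of 11. After *miR-139-3p* they had 3 lower (33.3%) and 2 higher (22.2%), beside the 30.5% and 23.0% of all protein-coding genes, with a median of -0.19. Across the alternatives this median ran from -0.41 to 0.06. *GPX1*, the main cytosolic glutathione peroxidase, was higher at 1.04, from a scaled signal of 70.5 in mock to 145, and *GPX5*, a dim probe, was at 0.81. *GPX3* was lower at -1.36, *GPX2* at -0.99 (0.52 after *miR-139-5p*, but 0.44 without scaling and 0.47 with normexp) and the mitochondrial *PRDX3* at -0.75, and *PRDX1*, with a scaled signal of 261 in mock and 211 with *miR-139-3p*, was at -0.31. With *miR-139-5p* the median was 0.08, and 2 genes were higher (22.2%, beside 10.6%) and 0 lower (beside 12.2%), *GPX1* being at -0.49. That median ran from -0.003 to 0.21 across the alternatives.

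Of the 13 markers of ER stress, 5 were lower (38.5%) and 2 higher (15.4%) after *miR-139-3p*, with a median of -0.40 (-0.11 with the lowess trend removed), where 30.5% and 23.0% of all protein-coding genes and 36.7% and 9.45% of the bright ones were. After *miR-139-5p* the numbers were 2 (15.4%) and 1 (7.69%), beside 12.2% and 10.6% of protein-coding genes, with a median of 0.18. With *miR-139-3p* *CHAC1* was at -1.68, *ASNS* at -1.08, *XBP1* at -0.74, *EDEM1* at -0.63, *ATF4* at -0.48, *EIF2AK3* at 0.56 and *ATF3* at 1.29. *SEL1L*, also counted as lower at -0.54, had 3 probes that ran from -1.17 to 0.12. Of the 10 markers of hypoxia, 8 were lower (80.0%, beside 30.5%) and 1 higher (10%, beside 23.0%) after *miR-139-3p*, with a median of -0.93. With normexp 3 of the 10 were lower and the median was -0.44, a setting that changes the background correction, the spot signal and the offset together. After *miR-139-5p* these were 1 (10%, beside 12.2%) and 2 (20.0%, beside 10.6%), with a median of 0.24. The glucose transporter *SLC2A1* was at -3.88 with *miR-139-3p*, from a scaled signal of 14 in mock to 0.95, *EGLN3* at -2.10, *NDRG1* at -1.62, *PGK1* at -0.83 and *ANKRD37* at 0.61, and the value of *CA9*, -1.43, is a bound, since its probe was not well above background there. The part of hypoxia or ER stress in the values of the 10 genes was not tested.

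**Figure D4:**
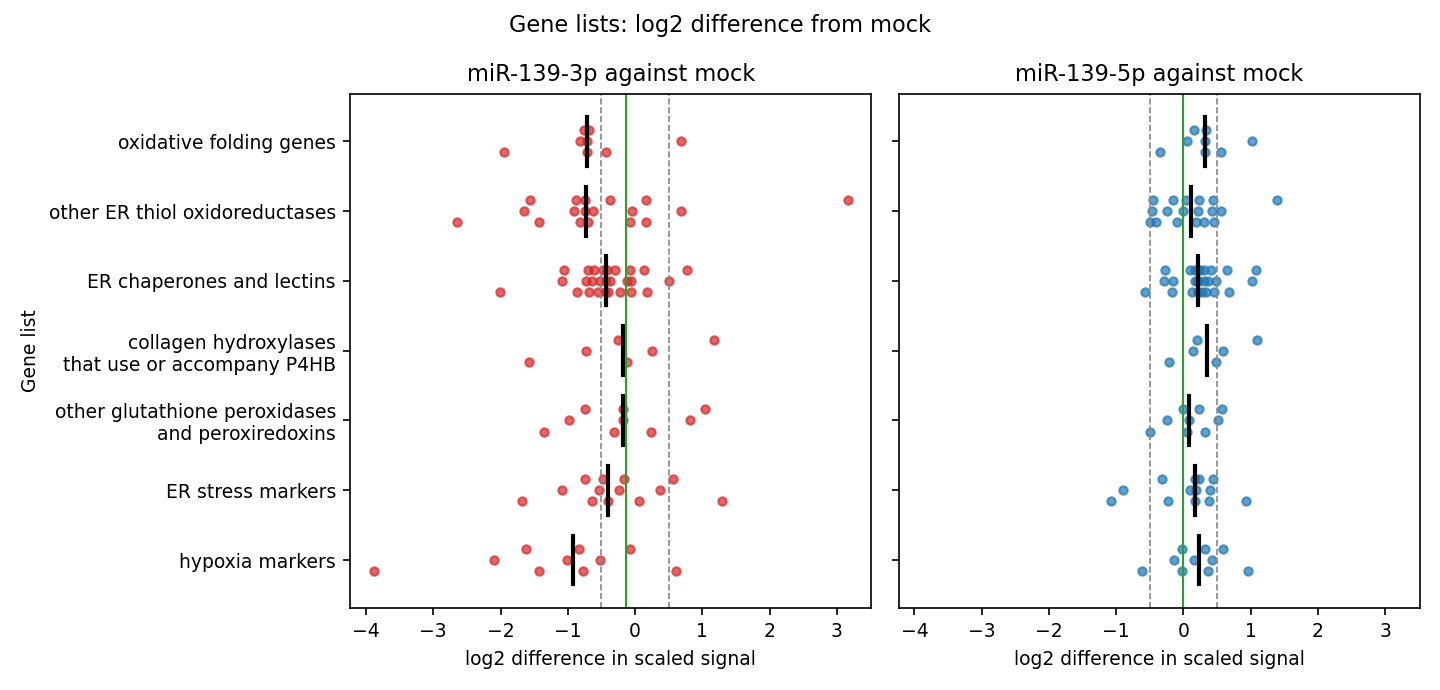
Log2 difference in scaled signal of each gene with a value in the 8 measured folding genes and the 6 other lists, *miR-139-3p* against mock on the left and *miR-139-5p* against mock on the right, with black bars at list medians, a green line at the median of protein-coding genes and dashed lines at the threshold of 0.5. The hypoxia markers have the lowest median on the left in the main processing, at -0.93. With normexp it was -0.44, and this ranking did not hold, since the middle values of the 8 folding genes were then -0.76 (*TXNDC5*) and -0.72 (*P4HB*).

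The pair of log2 differences of *GPX8*, -1.95 after *miR-139-3p* and 0.33 after *miR-139-5p*, was set against those of 12323 protein-coding genes measured in both comparisons, by Euclidean distance over the 3 arrays. The 5 nearest genes were *DEFB1* at -1.94 and 0.35, *SIPA1L3* at -1.93 and 0.38, *GDA* at -1.87 and 0.37, *PLA2G4A* at -1.87 and 0.38, and *CTDSP2* at -2.04 and 0.28. Their distances, 0.02 to 0.10, were below the error of *GPX8* itself, so their order has no meaning. In the GRCh38.p14 annotation *GPX8* lies within the span of *CDC20B*, and the 1 probe of *CDC20B* was not well above background on any array.

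Many ER folding genes carry promoter elements through which the unfolded protein response raises their transcription. RefSeq promoter sequences of GRCh38.p14 were held for 9 of the 10 genes, *PDIA3* being the exception, and the 250 bases upstream of each start were searched on both strands. The ER stress element (CCAAT and CCACG separated by 9 bases) occurred in 26 of 35116 promoters, upstream of 25 of 27305 genes (0.092%). Among the 9 genes it occurred in promoters of *ERO1B* and *PDIA6*. The second ER stress element (ATTGG and CCACG separated by 1 base) occurred in 18 promoters, upstream of 18 genes (0.066%). It occurred in 0 of the 9 genes. The unfolded protein response element is TGACGTGG, whose letters share the CCACG of the other elements on the opposite strand. This element occurred in 215 promoters, upstream of 213 genes (0.78%), and among the 9 genes in a promoter of *TXNDC5*. The matches are shown with that of *HSPA5*, a known user of the first element that was picked here for reference, with the element in capitals and each read 5′ to 3′ on the strand given.
*ERO1B*, chr1:236282178-236282206, plus strand: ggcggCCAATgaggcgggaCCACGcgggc
*PDIA6*, chr2:10812848-10812876, minus strand: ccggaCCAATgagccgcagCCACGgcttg
*HSPA5*, chr9:125241386-125241414, minus strand: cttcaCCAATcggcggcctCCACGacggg
*TXNDC5*, chr6:7910157-7910174, minus strand: gcggcTGACGTGGcgctc
The matches in *PDIA6* and *TXNDC5* lie upstream of 1 of the 2 starts held for each. The 3 members with a match differed in sign with *miR-139-3p*, with *ERO1B* at 0.68, *PDIA6* at -0.77 and *TXNDC5* at -0.82. Other genes of the lists also held a match, and no link between match and difference was tested. A match describes these letters and is not a measured site.

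The arrays were checked against markers of the cell line. The epithelial keratins *KRT8*, *KRT18* and *KRT7* and the enzymes *AKR1B10*, *AKR1C1* and *ALDH1A1*, known to be high in A549 cells, had scaled signals between 112 and 789 on the 3 arrays on the brightest probe of each gene, and *EPCAM* and *CDH1* were between 2.33 and 4.82 on theirs. *PECAM1*, *DCN* and *ALB*, markers of endothelium, fibroblasts and liver, were not well above background on any array. *COL1A1* had 0.43 in mock, 1.14 after *miR-139-5p* and 0.28 after *miR-139-3p*, and 2 of the 5 probes of the leukocyte gene *PTPRC* were well above background, the brightest at 0.11, 0.11 and 0.25.

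Of the 12 alternatives at the threshold of 0.5, 4 (the 2 on dim probes, the median over probes and outlier spots kept) left the values of these members as they were, and 8 could change them. Across those 8, *GPX8*, *PRDX4* (-0.94 to -0.55) and *TXNDC5* (-1.04 to -0.54) were lower with *miR-139-3p* than in mock in each. The values of *P4HB*, *PDIA4* and *PDIA6* came within the threshold in some settings, *PDIA3* left it in others, and *ERO1B* stayed above 0 in all.

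**Figure D5:**
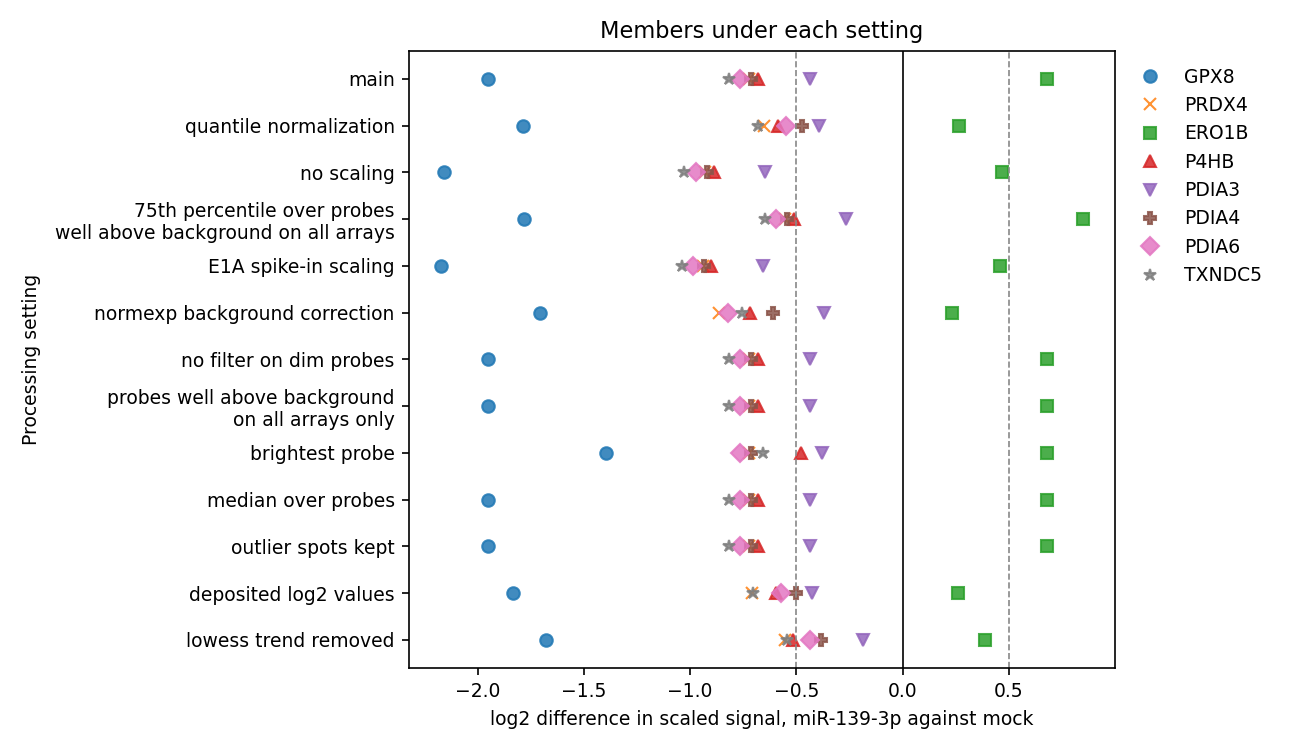
Log2 difference in scaled signal, *miR-139-3p* against mock, of the 8 measured genes under the main processing and 12 of the alternatives, with dashed lines at the threshold of 0.5. *GPX8* ran from -2.17 to -1.39, and *ERO1B* from 0.23 to 0.85.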

How the data were processed

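The authors deposited, for each spot, an intensity and its estimated error from Feature Extraction 12.1.1.1, already background subtracted but not normalized across arrays. The authors also deposited log2 values per probe, whose differences between arrays followed those of quantile-normalized signals (r = 0.9997 across 58201 probes, which are not independent). Each of these columns had a median of 2.21, and how they were made is not given in the sources used here.

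Here each log2 signal was scaled by subtracting its array's 75th percentile, taken on log2 over all but control spots (93.6 in mock, 88.9 with *miR-139-5p*, 81.0 with *miR-139-3p*). Outlier spots were left out, and spots of a probe averaged. On 283 probes with 10 spots and 17 with fewer, the median SD between spots was 0.05 to 0.06 (log2), a technical spread. A gene was averaged over those probes well above background (at least 50% of spots) on both arrays, or else given as a bound from the brightest probe measured on 1 array, with the dim side at the higher of its signal and the lowest signal well above background. Genes were named by RefSeq accession through the GRCh38.p14 annotation, which matched 24751 of 25277 probes with an NM accession. The probes were designed on hg19, and probe coordinates are therefore not printed. Those given for the miRNAs and promoter matches are from GRCh38.p14.

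The members and lists were chosen with earlier results of these data known. Genes named are all members, up to 4 higher and 4 lower genes past the threshold in each list with *miR-139-3p*, the brightest gene of each list, and the 5 nearest to *GPX8*. Outside this rule stand *HSPA5*, *DNAJC3* and *SEL1L*, named after their values were seen, *CDC20B*, named for its place around *GPX8*, and the cell type markers. In total 13 alternatives were tried, 1 of them, the lowess trend, chosen after seeing the data. Normexp used median spot signals, and E1A scaling the median over 7 probes of their deviations from their own mean. The steps were tested on simulated data. Python 3.11.15, numpy 2.4.6, pandas 2.3.3, statsmodels 0.14.6, matplotlib 3.10.9 and, for normexp, R 4.3.3 with limma 3.58.1 were used.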

Additional observations from a re-analysis of the deposited data

Results flagged for a closer look

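In 5 of the members and the genes named from the lists the log2 difference from mock lay past the threshold in opposite directions with the 2 miRNAs, on 1 array each. Genes were named from the lists largely for passing the threshold with *miR-139-3p*, which raises this number. The share of all protein-coding genes is not given beside it, so nothing is read from the number. *PDIA4* was at -0.71 after *miR-139-3p* and 0.55 after *miR-139-5p*. The chaperone *FKBP7* was at -0.86 and 1.02, and *GPX2*, the glutathione peroxidase of the gut, at -0.99 and 0.52. The hypoxia markers *EGLN3* and *SLC2A1* were at -2.10 and 0.96, and at -3.88 and 0.58. Not all of these held in other settings. *GPX2* came within the threshold after *miR-139-5p* in 5 of them, at 0.44 without scaling, 0.47 with normexp, 0.48 with the deposited values and 0.49 with the lowess trend removed or the percentile over probes well above background on all arrays. *PDIA4* came within it after *miR-139-3p* at -0.48 with quantile normalization and -0.38 with the lowess trend removed, was at -0.50 with the deposited values, and after *miR-139-5p* was at 0.48 without scaling. *EGLN3* was at -0.38 and 0.38 with normexp. The cell type marker *COL1A1*, which was not part of this search, also lay past the threshold on opposite sides. Both values of a gene share the mock array, and the difference between them was not tested.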

How the results depend on the processing

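Values count as moved here if they shifted past the median SD that probes of 1 gene show, 0.28 in the *miR-139-3p* comparison with mock, 0.15 in that of *miR-139-5p* and 0.26 between the transfected cells. Counts do if they changed more than 1.5 times. The lowess alternative was chosen after seeing the data. No paired analysis was possible because 1 array was held per treatment and nothing was tested. Signal over background limits *GPX7*, which has no value, and *ERO1B*, which rests on 1 dim probe. Unless a reason is given, the cause was not tested.

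*GPX8* stayed below -0.5 with *miR-139-3p* in all settings run for it. In 4 of the 12, the 2 on dim probes, the median over probes and outlier spots kept, the values of the measured members did not change at all. With the brightest probe of a gene, which leaves out the lower one, it was at -1.39 after *miR-139-3p*, 0.62 after *miR-139-5p* and -2.01 between the transfected cells. The last value was -2.63 with E1A spike-in scaling, -2.02 with normexp and -2.01 with the lowess trend removed. Of the members, 1 was lower with *miR-139-3p* at a threshold of 1, which lowers counts by construction, and between 4 and 7 at 0.5. The number higher with *miR-139-3p* was 0 with quantile normalization, no scaling, E1A scaling, normexp, the deposited log2 values, the lowess trend removed and a threshold of 1. With *miR-139-5p* the number of members higher was 1 without scaling, with normexp and at a threshold of 1, and 4 with the brightest probe.

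Among protein-coding genes, a threshold of 1 left 1754 lower and 1396 higher after *miR-139-3p*, 312 and 244 after *miR-139-5p*, and 1786 and 1486 between the transfected cells. With normexp, 1186 were higher after *miR-139-3p*, 605 lower and 467 higher after *miR-139-5p*, and 1261 higher between the transfected cells. That setting changes the background correction, the spot signal and the offset, here 50, together. With E1A scaling, which shifts all values of a comparison by 1 amount, 1041 were lower and 2141 higher after *miR-139-5p*, and 6422 lower and 1907 higher between the transfected cells. Without a filter on dim probes 2110 were higher with *miR-139-5p*.

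Of the other ER thiol oxidoreductases, 1 in place of 2 was higher with *miR-139-3p* in 8 settings, those with quantile normalization, no scaling, E1A scaling, normexp, only probes well above background on all arrays, the deposited values, a threshold of 1 and the lowess trend removed. At a threshold of 1, 4 were lower, and the median was -0.44 with the lowess trend removed. With *miR-139-5p*, 1 was lower with quantile normalization, the percentile over probes well above background on all arrays, normexp and the lowess trend removed, and 3 without scaling. The number higher was 1 without scaling and at a threshold of 1, 5 with E1A scaling and 0 with normexp.

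Of the ER chaperones with *miR-139-3p*, 6 were lower with quantile normalization, the deposited values and the lowess trend removed, 7 with the percentile over probes well above background on all arrays, 18 without scaling and with E1A scaling, and 3 at a threshold of 1. The number higher was 2 with that percentile and the lowess trend removed and 0 at a threshold of 1, and the median was -0.12 with the trend removed. With *miR-139-5p*, 0 were lower with E1A scaling and at a threshold of 1, and 7 and 2 were higher in these settings. Of the collagen hydroxylases, 1 was lower after *miR-139-3p* and 1 higher after *miR-139-5p* with normexp and at a threshold of 1, and the *miR-139-3p* median was 0.14 with the lowess trend removed.

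Of the other glutathione peroxidases and peroxiredoxins, 1 was higher with *miR-139-3p* with quantile normalization, normexp, the deposited values, a threshold of 1 and the lowess trend removed, and 1 was lower at a threshold of 1. With *miR-139-5p*, 1 was lower with quantile normalization, no scaling, the percentile over probes well above background on all arrays, the deposited values and the lowess trend removed. The number higher was 0 with no scaling, normexp, a threshold of 1 and the lowess trend removed, and 1 with that percentile and the deposited values.

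Of the ER stress markers, 1 was higher with *miR-139-3p* with quantile normalization, no scaling, E1A scaling, normexp, the deposited values, a threshold of 1 and the lowess trend removed. The number lower was 3 with the percentile over probes well above background on all arrays and with the trend removed, and 2 at a threshold of 1, and the median was -0.11 with the trend removed. With *miR-139-5p*, 0 were lower with normexp, and 1 with only probes well above background on all arrays, a threshold of 1 and the trend removed. The number higher was 4 with E1A scaling, 3 with the brightest probe, 2 with the median over probes, and 0 with normexp and at a threshold of 1. Of the hypoxia markers with *miR-139-3p*, 0 were higher without scaling, with E1A scaling, normexp, the deposited values and a threshold of 1, and 3 were lower with normexp and 5 at a threshold of 1. The median was -0.44 after *miR-139-3p* and 0.051 after *miR-139-5p* with normexp. With *miR-139-5p*, 0 were lower with E1A scaling and at a threshold of 1, and the number higher was 1 with normexp and 0 at a threshold of 1.

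Of the values of single members other than *GPX8* and of named genes of the lists, 1001 did not move, which counts settings that left a gene as it was, and 85 moved, 58 nearer to 0, 25 farther from 0 and 2 to the other side of 0.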
